A study of Mus musculus with 6 samples.

Results

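The cytochrome P450 families Cyp1, Cyp2 and Cyp3 were followed gene by gene in mouse liver. Members were the protein-coding rows of the deposited expression table whose symbol begins with Cyp1, Cyp2 or Cyp3, a subfamily letter and a number, with 1 Cyp2c gene left out. The rule uses names and no measured value, and it gave 59 genes in 16 subfamilies out of 22046 protein-coding genes and 54532 genes in all. RNA-seq of liver tissue was carried out on 6 libraries. In 3 of them, called HKO, the mice were hepatocyte-specific G3bp1 knockouts. The other 3, called Flox, came from litter controls with the G3bp1-Flox genotype. Mice of both groups entered high-fat feeding at 6 weeks of age and stayed on it for 12 weeks, so no library shows these genes on ordinary food. The sources used here give no strain, no sex and no driver of the hepatocyte-specific deletion. Since no label ties each library to its own animal, the p-values reflect the spread among these samples alone, and that spread may be technical.

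Cytochrome P450 enzymes are haem proteins of the endoplasmic reticulum that insert 1 oxygen atom into drugs, steroids, fatty acids and other small molecules, with electrons passed on by the reductase Por and, for some reactions, by cytochrome b5. The Cyp1, Cyp2 and Cyp3 families carry out most of the oxidation of foreign compounds in liver. Nuclear receptors that sense such compounds, namely Ahr for Cyp1a genes, CAR (Nr1i3) for Cyp2b genes and PXR (Nr1i2) for Cyp3a genes, control many of them. Several members are made mainly by the hepatocytes round the central vein, and several differ between male and female mouse liver through the pattern of growth hormone release.

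Most members lie in clusters of near copies, which bears on how far a read can be assigned to 1 gene. In the deposited table's GRCm38 coordinates, the 14 Cyp2c members lie on chromosome 19, the 8 Cyp2d members on chromosome 15, the 8 Cyp2j members on chromosome 4, and the 9 Cyp3a members on chromosome 5. Chromosome 7 holds 15 members, among them all 4 Cyp2a genes, all 5 Cyp2b genes and Cyp2e1. In a comparison of coding sequences, 7 of the 36 members that could be tested had a copy in another gene at 97% identity or more over at least 80% of the length. Cyp2a4 and Cyp2a5 were 98.45% identical, and Cyp3a25 and Cyp3a59 were 97.48% identical. Cyp2c40, Cyp2c67 and Cyp2c68 matched each other or Cyp2c69 at 97.69% to 98.12%. The division of reads within these 3 sets is uncertain, and the values of their members are to be read so. Members under that limit can be close too. Cyp2c50 was 96.12% identical to Cyp2c37 and 95.24% to Cyp2c54, and Cyp2d10 was 94.71% identical to Cyp2d11. How reads were divided among these genes was not tested.

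The likeness extends upstream of the genes, and the sequences below show it for the 2 gene pairs on which later results turn. Each is the run of 250 bases before the transcription start, 5′ to 3′ on the strand of the gene, from RefSeq on GRCm38.p6, in which 51 of the 59 members were matched by symbol. In each pair, capitals mark the bases that differ from the partner or have no partner in the alignment. The first pair is Cyp2b9 (chr7:26173159-26173408, plus strand) and Cyp2b13 (chr7:26061245-26061494, plus strand). The second is Cyp3a25 (chr5:146009619-146009868, minus strand) and Cyp3a59 (chr5:146079008-146079257, plus strand).
Cyp2b9: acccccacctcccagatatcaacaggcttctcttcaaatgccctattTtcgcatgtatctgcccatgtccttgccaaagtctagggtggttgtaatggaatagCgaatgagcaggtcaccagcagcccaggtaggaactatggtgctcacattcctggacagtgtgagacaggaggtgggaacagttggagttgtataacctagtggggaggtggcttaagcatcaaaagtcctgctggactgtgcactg
Cyp2b13: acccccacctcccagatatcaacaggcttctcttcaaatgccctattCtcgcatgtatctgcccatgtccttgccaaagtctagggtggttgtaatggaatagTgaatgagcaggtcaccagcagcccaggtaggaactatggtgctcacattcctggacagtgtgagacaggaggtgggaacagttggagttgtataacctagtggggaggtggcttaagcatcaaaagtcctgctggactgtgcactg
Cyp3a25: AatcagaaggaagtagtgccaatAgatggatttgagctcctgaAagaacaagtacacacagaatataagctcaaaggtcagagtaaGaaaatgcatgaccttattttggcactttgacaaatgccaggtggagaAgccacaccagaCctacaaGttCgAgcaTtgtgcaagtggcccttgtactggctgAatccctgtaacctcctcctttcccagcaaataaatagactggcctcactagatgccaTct
Cyp3a59: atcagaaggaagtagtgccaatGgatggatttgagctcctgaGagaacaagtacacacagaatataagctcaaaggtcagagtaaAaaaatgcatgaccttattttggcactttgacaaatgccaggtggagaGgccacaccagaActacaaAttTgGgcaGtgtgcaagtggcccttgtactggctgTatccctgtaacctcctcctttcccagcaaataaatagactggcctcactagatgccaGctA

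The Cyp2b9 and Cyp2b13 windows were identical at 248 of 250 bases and differed at 2. The Cyp3a25 and Cyp3a59 windows were identical at 238 of 250 bases, with 2 gap columns in their alignment. Among short motifs searched on both strands, AAAGTCCA, the core that the liver factor Hnf4a binds, was found in 9 of the 51 member windows and in 1.01% of 32851 promoter windows of all genes. TATAAA, the letters of the TATA box, was found at any place in the window in 24 of the 51 and in 12.4% of all windows. The match counted in Cyp3a11 begins 234 bases before the start, so a match need not be a working TATA box. GCGTG, the core of the Ahr response element, was found in 8 of the 51 and in 28.2% of all. TTCNNNGAA, the site of the growth hormone factor Stat5, was found in 2 of the 51 and in 7.02% of all. Members in clusters of near copies may share upstream sequence, as the 2 pairs above do. The member windows can therefore not be counted as independent matches. The first 2 motifs occur together in Cyp2c65, Cyp2c67, Cyp3a11, Cyp3a16, Cyp3a41a and Cyp3a41b. The window of Cyp2c67 (chr19:39649043-39649292, minus strand) is printed below, and capitals mark them. AAAGTCCA begins 124 bases and TATAAA 40 bases before the RefSeq start. The deposited table places the end of this minus-strand gene at 39649051, inside the window. The last bases printed therefore lie within the gene as deposited, and both distances depend on the start used.
Cyp2c67: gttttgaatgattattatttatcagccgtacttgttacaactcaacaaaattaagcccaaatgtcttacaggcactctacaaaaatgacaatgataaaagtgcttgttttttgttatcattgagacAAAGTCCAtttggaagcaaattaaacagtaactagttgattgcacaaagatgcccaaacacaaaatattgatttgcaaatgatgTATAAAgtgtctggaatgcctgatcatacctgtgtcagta

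A match says only that these letters are in the window. The 9 genes with AAAGTCCA were Cyp2c40, Cyp2c65, Cyp2c67, Cyp2c68, Cyp2c69, Cyp3a11, Cyp3a16, Cyp3a41a and Cyp3a41b. Of these, Cyp2c40, Cyp2c67, Cyp2c68 and Cyp2c69 are near copies. Cyp3a11, Cyp3a16 and Cyp3a41b are 92.86% to 99.87% identical to Cyp3a41a in coding sequence. The 9 genes ran from no assigned read (Cyp3a41a and Cyp3a41b) to a mean of 144 FPKM (Cyp2c67), so members with and without reads had the motif. The coding sequences of Cyp3a41a and Cyp3a41b are 99.87% identical, so their reads may not be assignable to either gene. A lack of assigned reads does not show that this pair is silent. FPKM is the number of reads of a gene per kilobase of its length, scaled to a fixed library size.

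The libraries held 15804115 to 17954066 assigned reads, and the members took 1.83% to 2.17% of them. One FPKM amounted to 14.9 to 18.5 reads per kilobase of gene length. G3bp1, the deleted gene, was at 8.67 ± 0.37 FPKM (SD, n = 3) in Flox and 4.46 ± 0.194 FPKM in HKO, with every HKO library below every Flox library (log2 fold change -0.83, adjusted p = 0.11 in limma). In bulk tissue, fewer cells of a type and less RNA per cell cannot be told apart. The hepatocyte markers Alb, Apoa1, Ttr, Tat, Cps1 and Asgr1 were all expressed, at summed FPKM of 43774 to 44870 in Flox and 36575 to 46461 in HKO, a sum made up mostly of Alb. Their fitted value was below 0 in 5 of 6, with 2 of 6 below 0 under TPM and under quantile normalization, and 4 and 2 of 6 below the median of all genes there. Apoa1 (7354 ± 854 FPKM in Flox and 5906 ± 702 FPKM in HKO) and Ttr (5810 ± 710 and 4329 ± 167 FPKM) were lower in every HKO library, as were 7.21% of all tested genes, and neither passed (adjusted p = 0.678 and 0.648 in limma). Of 8 markers of Kupffer cells and macrophages, 8 had a higher mean in HKO, 4 of them without overlap against 6.06% of all tested genes, at summed FPKM of 51.0 to 100 in Flox and 86.7 to 127 in HKO. None of those 8 passed the adjusted threshold, and the part of these hepatocyte and macrophage values in the members' values was not tested. The mean was higher in HKO in 6 of 7 markers of sinusoidal endothelium, 3 of 6 of stellate cells, 3 of 4 of bile duct and 2 of 2 of lymphocytes that were tested, also without a call. Markers of kidney tubule and enterocytes summed to at most 0.165 FPKM. The labels give no sex. The Y-linked gene Ddx3y was at 13.8 ± 2.1 FPKM in Flox and 15.1 ± 2.4 FPKM in HKO, while Xist, the RNA of the inactive X chromosome, averaged 0.00332 and 0.00829 FPKM. Over the 6 libraries Ddx3y ran from 12.2 to 16.5 FPKM and Xist reached at most 0.0188 FPKM, the pattern of male liver in every library.

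Cyp2e1 dominated the families. This ethanol- and acetaminophen-oxidizing enzyme of the central vein region was at 4593, 4979 and 3918 FPKM in Flox and 4657, 4018 and 3600 FPKM in HKO, and it ranked 14 among all protein-coding genes of the table by mean FPKM. The groups overlapped, since HKO 1 was above 2 of the 3 Flox libraries. Cyp2e1 alone made up 45.1% to 50.8% of the members' summed FPKM, and the 5 highest members together 65.2% to 72.7%. The next in order of mean FPKM were Cyp2d26 (604), Cyp2d10 (490), Cyp2d9 (465), Cyp2f2 (328), Cyp1a2 (307), Cyp2j5 (297), Cyp2c50 (285), Cyp2a5 (265) and Cyp2c29 (249). The ranges of the 6 libraries overlapped between all neighbours from Cyp2d26 to Cyp2c29, so their order is not fixed.

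**Figure D1:**
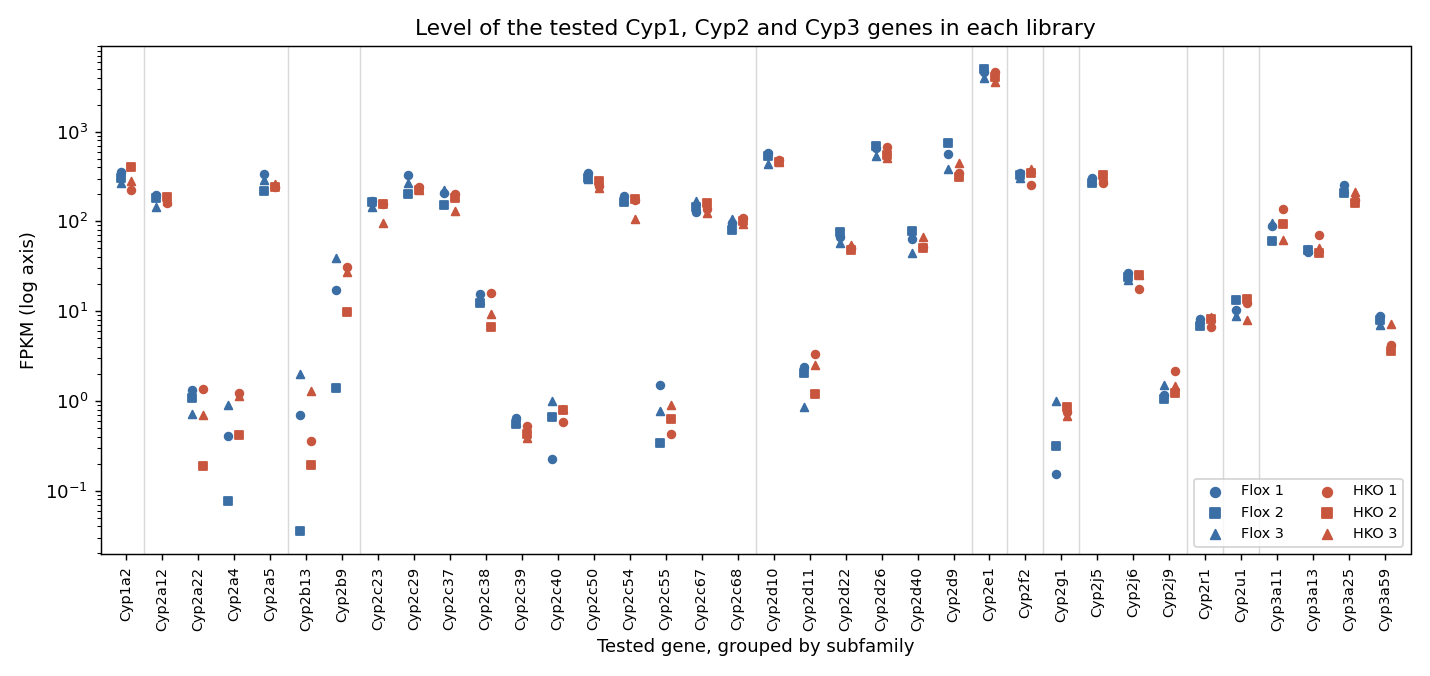
FPKM on a log axis of the 36 tested Cyp1, Cyp2 and Cyp3 genes, grouped by subfamily along the horizontal axis, with 1 point per library (blue: 3 Flox; red: 3 HKO; the shape gives the replicate number). Cyp2e1 sits alone near 4294 FPKM, most genes have overlapping blue and red points, and Cyp2b9 and Cyp2b13 spread the most.

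Levels spanned several orders of magnitude. A mean of at least 100 FPKM was reached by 16 members and a mean of 10 to 100 FPKM by 9. Another 4 lay between 1 and 10 FPKM, and 7 tested members lay below 1 FPKM. The remaining 23 members did not reach 0.5 FPKM in 3 libraries and were not tested. Of these, 10 had no read in any library, which allows up to 3 reads in each for counting error only. They were Cyp2b19, Cyp2b23, Cyp2c66, Cyp2j7, Cyp2j12, Cyp2j13, Cyp2w1, Cyp3a41a, Cyp3a41b and Cyp3a57. For the near-identical Cyp3a41a and Cyp3a41b, that limit does not cover reads dropped because they match both genes.

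The other 13 untested members had few reads. Cyp1a1, the Ahr-inducible enzyme of the Cyp1a pair, had at most 27 reads in a library and 0.523 FPKM, while its neighbour Cyp1a2 averaged 307 FPKM. Cyp2b10, the most used readout of CAR activity in mouse liver, had at most 3 reads (0.0924 FPKM), and 2 of the 6 libraries had none. Cyp2d12 reached 0.389 FPKM, Cyp2c69 0.446, Cyp2s1 0.36 and Cyp2d34 0.305. Cyp1b1, Cyp2c65, Cyp2j8, Cyp2j11, Cyp2t4, Cyp3a16 and Cyp3a44 stayed at or below 0.122 FPKM. Cyp2s1 was the one untested member whose groups did not overlap, with read counts of 6, 1 and 7 (Flox) against 8, 14 and 33 (HKO), below the level needed for the test.

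No member passed the test between HKO and Flox. In limma on log2(FPKM + 1), 0 of 36 members had a Benjamini-Hochberg adjusted p under 0.05, against 1 of all 11856 tested genes (0.00843%), and the smallest adjusted p of a member was 0.648. The gene that passed was the pseudogene Gm12411, named here after its values were seen. At an unadjusted p under 0.05, 3 members were lower in HKO (Cyp2d22, Cyp3a59 and Cyp2c50) against 4.55% of all tested genes, and 0 were higher against 3.08%. limma voom on reads recovered from the FPKM also called 0 members. Every HKO library lay below every Flox library in 3 of the 36 (Cyp2c39, Cyp2c50 and Cyp2d22) against 7.21% of all genes, and above in 0 against 6.06%. With 36 members, these counts are near the background shares. With 3 against 3 libraries an exact permutation test of a single gene cannot go below p = 0.1.

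Signs leaned to lower values in HKO, by little. The fitted log2 fold change was below 0 in 24 of 36 members, against 51.2% of all tested genes, and its median was -0.12, against -0.01 over all tested genes. Without Flox 1 the members' median was -0.06, and without HKO 3 it was -0.04. After rescaling to TPM (length-corrected values with the same sum in every library) the count below 0 was 14, after quantile normalization 17 and after scaling by assigned reads 20. TPM moved the median of all genes by 0.15, and counted against that median 22 of 36 members lay below under TPM, 18 under quantile normalization and 22 by assigned reads. Summed over all 59 members, the level was 9522 ± 845 FPKM in Flox and 8581 ± 592 FPKM in HKO. The single sums were 9994, 10025 and 8546 in Flox and 9163, 8603 and 7978 in HKO, so Flox 3 lay among the HKO libraries. As a share of the summed FPKM of all protein-coding genes, the members took 2.27%, 2.15% and 2.20% in Flox. In HKO that share was 2.33%, 2.14% and 2.04%, so HKO 1 was the highest library and the groups overlapped.

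**Figure D2:**
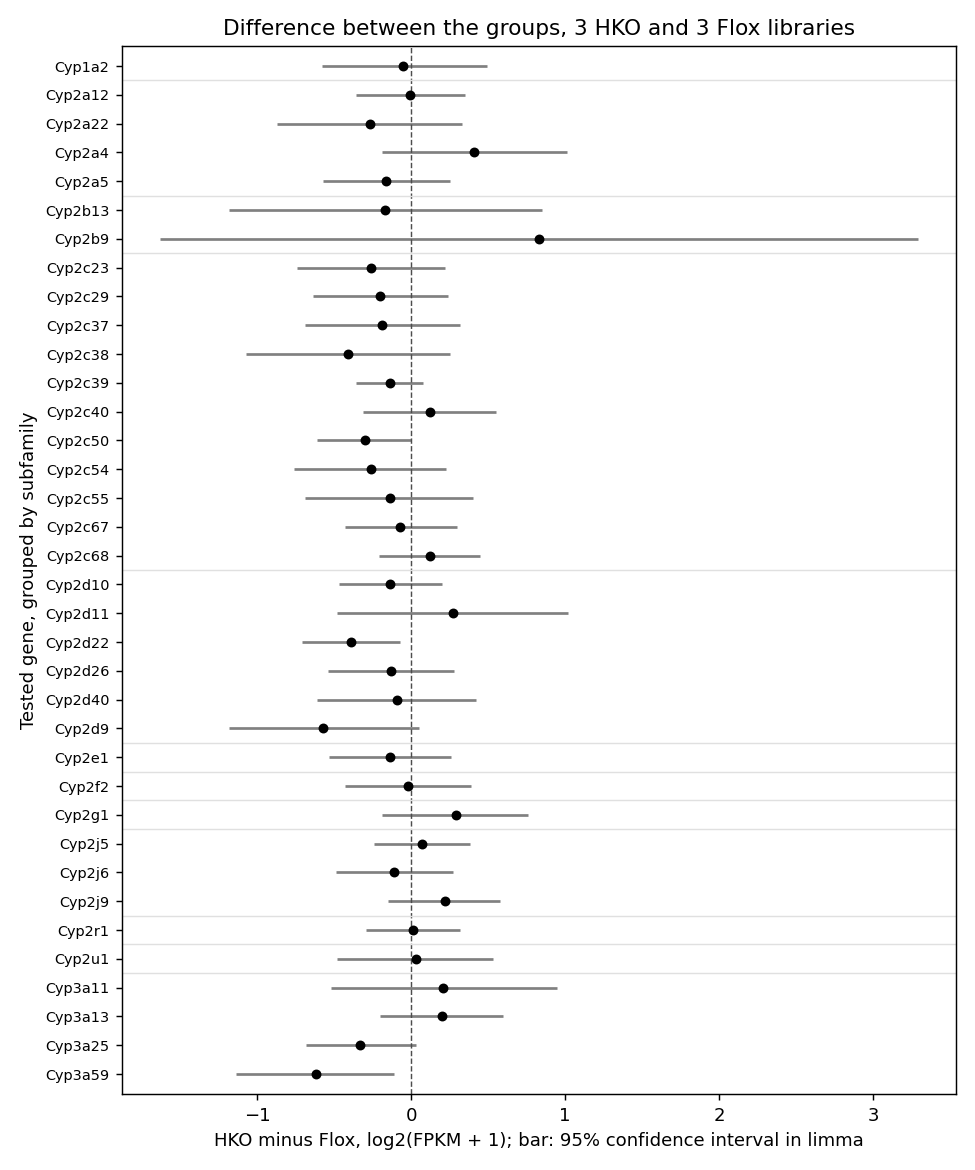
Log2(FPKM + 1) in HKO less that in Flox for each of the 36 tested members, with its 95% confidence interval in limma (3 against 3 libraries). Most intervals cross the dashed line at 0; those of Cyp2d22, Cyp3a59 and Cyp2c50 lie below it, and that of Cyp2b9 is the widest.

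Among the Cyp2d genes, which include the mouse relatives of human CYP2D6, the fitted value was below 0 in 5 of the 6 tested members, in 5 by assigned reads, but in 2 under TPM and under quantile normalization. Against the median of all genes, 5 of 6 lay below under TPM and by assigned reads and 3 of 6 under quantile normalization. Cyp2d22, the gene usually taken as the closest mouse counterpart of CYP2D6, was at 67.7, 76.5 and 57.4 FPKM in Flox and 50.6, 47.5 and 54.4 FPKM in HKO. The groups did not overlap in the deposited values, and the mean was 24.3% lower in HKO (log2 fold change -0.39, 95% interval -0.71 to -0.07, adjusted p = 0.648 in limma, exact permutation p = 0.1). That log2 fold change was -0.21 under TPM, -0.27 after quantile normalization and -0.31 by assigned reads. Cyp2d9, a steroid 16α-hydroxylase known to be higher in male liver, was at 557, 744 and 382 FPKM in Flox and 346, 315 and 446 FPKM in HKO. The groups overlapped because Flox 3 was below HKO 3. Its mean was 34.2% lower in HKO, with an interval that reached past 0 (log2 fold change -0.57, -1.18 to 0.05, adjusted p = 0.667 in limma). Without Flox 2, its highest library, the log2 fold change was -0.34.

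The 2 most abundant Cyp2d genes overlapped between the groups. Cyp2d26 averaged 631 ± 88.8 FPKM in Flox and 577 ± 90.6 FPKM in HKO, and Cyp2d10 516 ± 69.9 and 465 ± 16.2 FPKM. Cyp2d40 (61.8 ± 16.5 and 56.8 ± 9.37 FPKM) and the weakly expressed Cyp2d11 (1.77 ± 0.81 and 2.36 ± 1.08 FPKM) also overlapped. The Cyp2d sum was 1839 ± 350 FPKM in Flox and 1522 ± 97.6 FPKM in HKO, and most of the Flox spread came from Flox 2 (2139 FPKM) against Flox 3 (1454 FPKM). The Cyp2d share of the members' sum ran from 17% to 21.3% in Flox and from 16.5% to 19.2% in HKO.

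The Cyp2c genes, which oxidize arachidonic acid and many drugs, leaned to lower values under every scaling tried. The fitted value was below 0 in 9 of 11 tested members with a median of -0.19, and in 8 of 11 under each of the other 3 scalings (TPM, quantile and assigned reads). The size rested in part on single libraries, since the median was -0.04 without HKO 3, with 8 of 11 below 0, and -0.32 without Flox 2. Cyp2c50 was at 342, 305 and 298 FPKM in Flox and 249, 281 and 235 FPKM in HKO. The groups did not overlap in the deposited values, and the difference was a log2 fold change of -0.30 (adjusted p = 0.651 in limma, exact permutation p = 0.1). It was -0.13 under TPM, -0.21 after quantile normalization and -0.23 by assigned reads. Cyp2c29, a member known from the central vein region, was at 331, 204 and 270 FPKM in Flox and 240, 224 and 224 FPKM in HKO. Its HKO libraries sat inside the Flox range.

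Cyp2c37 was at 195 ± 38 FPKM in Flox and 172 ± 36 FPKM in HKO. Cyp2c54 and Cyp2c23, an arachidonic acid epoxygenase, each had 1 low library, HKO 3, at 106 FPKM for Cyp2c54 and 96.5 FPKM for Cyp2c23. The other 2 HKO libraries of Cyp2c54 (171 and 178 FPKM) and of Cyp2c23 (156 and 155 FPKM) lay within the Flox ranges of 164 to 192 and 146 to 167 FPKM. Cyp2c38 was at 13.8 ± 1.71 and 10.7 ± 4.79 FPKM, and HKO 1 at 16.0 FPKM was the highest of all 6 libraries.

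The copies Cyp2c67 and Cyp2c68 differed between the groups by less than their spread, at 147 ± 20.6 and 140 ± 18.1 FPKM for Cyp2c67 and 93.4 ± 12.5 and 101 ± 8.5 FPKM for Cyp2c68. Their low copy Cyp2c40, known to be higher in female liver, stayed between 0.224 and 0.993 FPKM. Cyp2c39, a retinoic acid hydroxylase, was below in every HKO library (0.527, 0.429 and 0.386 FPKM) compared with Flox (0.645, 0.556 and 0.589 FPKM), on 13 to 18 reads per library. Cyp2c55 stayed between 0.338 and 1.5 FPKM with overlapping groups.

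**Figure D3:**
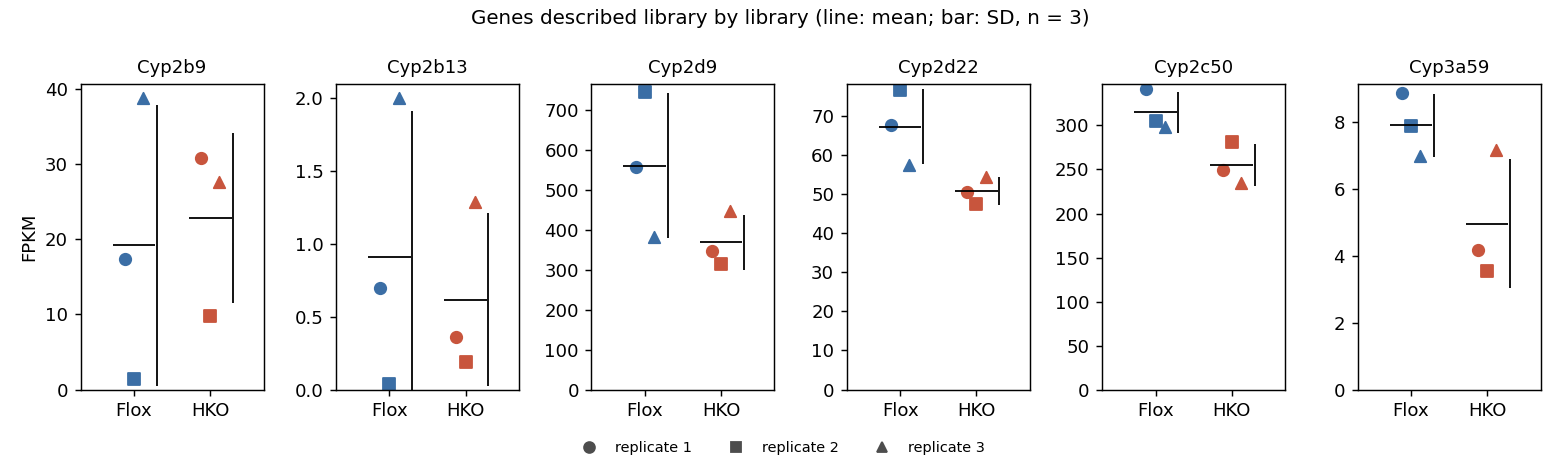
FPKM in each library for 6 members, with 1 panel per gene on its own axis from 0, blue points for Flox, red points for HKO, a line at the mean and a bar of 1 SD (n = 3) that is cut at 0 for Cyp2b13. The groups do not overlap in Cyp2d22 and Cyp2c50, HKO 3 lies apart from the other 2 HKO libraries in Cyp3a59, and Flox 2 is near 0 in Cyp2b9 and Cyp2b13.

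The Cyp3a genes split between higher and lower values. Cyp3a59 was at 8.87, 7.90 and 6.98 FPKM in Flox and 4.17, 3.56 and 7.17 FPKM in HKO. HKO 3 lay within the Flox range, and the other 2 HKO libraries lay below it (log2 fold change -0.62, -1.14 to -0.11, adjusted p = 0.648 in limma, exact permutation p = 0.2). Its near copy Cyp3a25, whose upstream sequence is printed above, was at 254, 208 and 227 FPKM in Flox and 175, 161 and 215 FPKM in HKO. It showed the same order of HKO libraries, with HKO 2 lowest and HKO 3 highest, and a log2 fold change of -0.33 (-0.68 to 0.03, adjusted p = 0.667 in limma). Since reads of the pair cannot be divided with certainty, the 2 genes are not independent measurements.

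Cyp3a11, the main PXR-inducible Cyp3a enzyme of mouse liver, was at 88.1, 60.0 and 95.6 FPKM in Flox and 137, 92.5 and 62.3 FPKM in HKO. HKO 1 was the highest library and HKO 3 lay near the lowest Flox library, Flox 2, so the difference of 0.21 on the log2 scale came with an interval from -0.52 to 0.95. Cyp3a13 was at 47.2 ± 1.64 FPKM in Flox and 55.1 ± 13.1 FPKM in HKO, and HKO 1 at 69.8 FPKM was again the highest. The fitted value of Cyp3a11 was -0.07 without HKO 1 and 0.50 without HKO 3.

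The Cyp2b genes varied most between libraries of the same group. Cyp2b9, known to be higher in female liver, was at 17.4, 1.40 and 38.8 FPKM in Flox and 30.8, 9.81 and 27.6 FPKM in HKO. The highest library was 27.7 times the lowest, and both were Flox. The SD within groups was 1.60 on the log2 scale, higher than in 99.9% of tested genes, so the log2 fold change of 0.83 had an interval from -1.63 to 3.29. It was -0.34 without Flox 2 and 1.69 without Flox 3. Cyp2b13, with 248 of 250 upstream bases in common, was at 0.694, 0.0359 and 2.0 FPKM in Flox and 0.361, 0.192 and 1.29 FPKM in HKO. Flox 2 was lowest, HKO 2 next and Flox 3 highest in both genes. The coding sequences were 92.74% identical, under the limit for copies, so a share of Cyp2b13 reads from Cyp2b9 was not tested.

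The median SD within groups was 0.26 on the log2 scale over the 36 tested members, against 0.16 over all tested genes. The 2 sets were not matched for level, and the pseudocount of 1 narrows the spread of low genes. A mean of at least 10 FPKM was reached by 25 of the 36 members. A mean of at least 5 FPKM was reached by 5200 genes, with 11856 tested in all. Flox 1 was the highest library in 12 members, while HKO 3 and Flox 2 were each the lowest in 9.

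The members known to be higher in female liver were low, with Cyp2b9 the exception. Cyp2a4, a steroid 15α-hydroxylase, was at 0.412, 0.0775 and 0.890 FPKM in Flox and 1.23, 0.414 and 1.15 FPKM in HKO. Flox 2 was again the lowest, and the groups overlapped because HKO 2 lay below Flox 3 (difference of 0.41 on the log2 scale, adjusted p = 0.692 in limma). That difference was 0.21 without Flox 2 and 0.62 without HKO 2. Cyp2a4 had 2 to 38 reads per library, while its near copy Cyp2a5 had 6737 to 10654. Flox 2 was the lowest library of Cyp2a5 too, and a share of Cyp2a4 reads from Cyp2a5 was not tested. Of the 9 listed members, 4 were tested. Cyp3a41a and Cyp3a41b were at 0 in every library, with the limit given above for this near-identical pair. Cyp3a16 had 2 reads in 1 library and Cyp3a44 at most 1 read in a library. Among 6 tested regulators of growth hormone signalling and sex bias, 3 were higher and 3 lower. Bcl6, a repressor of female-biased genes, was at 2.47 ± 2.16 FPKM in Flox and 6.45 ± 4.47 FPKM in HKO with overlapping groups. Stat5b, which carries the growth hormone signal, was at 14.0 ± 1.14 and 12.9 ± 1.38 FPKM, and none of the 6 passed.

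The groups overlapped in all 4 Cyp2a genes. Cyp2a5, the coumarin 7-hydroxylase, was at 334, 219 and 290 FPKM in Flox and 239, 241 and 264 FPKM in HKO, so the HKO libraries lay inside the Flox range. Cyp2a12, a steroid 7α-hydroxylase, averaged 175 ± 26.8 and 173 ± 14.6 FPKM. Its coding sequence is 96.95% identical to that of Cyp2a22, which averaged 1.05 ± 0.319 and 0.751 ± 0.585 FPKM. The low HKO mean of Cyp2a22 came from HKO 2 at 0.191 FPKM, while HKO 1 at 1.36 FPKM was above all Flox libraries.

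Members with other known roles had overlapping groups. Cyp1a2, the caffeine-oxidizing Cyp1a enzyme, was at 352, 303 and 271 FPKM in Flox and 226, 405 and 284 FPKM in HKO, so both the lowest and the highest library were HKO. Its log2 fold change of -0.05 had an interval from -0.58 to 0.49. Cyp2f2, an enzyme that activates naphthalene and is made round the portal vein in liver, was at 327 ± 18.8 and 328 ± 66.1 FPKM (interval from -0.43 to 0.39). Markers of airway club cells, which are also known for Cyp2f2, were at or near 0, with Scgb1a1 and Scgb3a2 at 0 in every library. A non-coding gene on the other strand shares 13.5% of the exon bases of Cyp2f2, and the library kit named in the labels does not mark strand.

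Cyp2j5 and Cyp2j6 are arachidonic acid epoxygenases of the Cyp2j group, in which 2 of the 3 tested members had a fitted value above 0. Cyp2j5 was at 289 ± 17.3 and 304 ± 31 FPKM and made up 92.2% of the subfamily's FPKM. Cyp2j6 was at 24.3 ± 1.92 and 22.7 ± 4.49 FPKM and Cyp2j9 at 1.24 ± 0.242 and 1.62 ± 0.481 FPKM. Cyp2r1, the vitamin D 25-hydroxylase, was at 7.72 ± 0.846 and 7.81 ± 1.07 FPKM, with a narrow interval from -0.29 to 0.32 on the log2 scale. Cyp2u1 was at 10.9 ± 2.3 and 11.3 ± 2.9 FPKM. Cyp2g1, best known from the olfactory mucosa, was at 0.488 ± 0.449 and 0.769 ± 0.0937 FPKM with 5 to 36 reads per library.

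**Figure D4:**
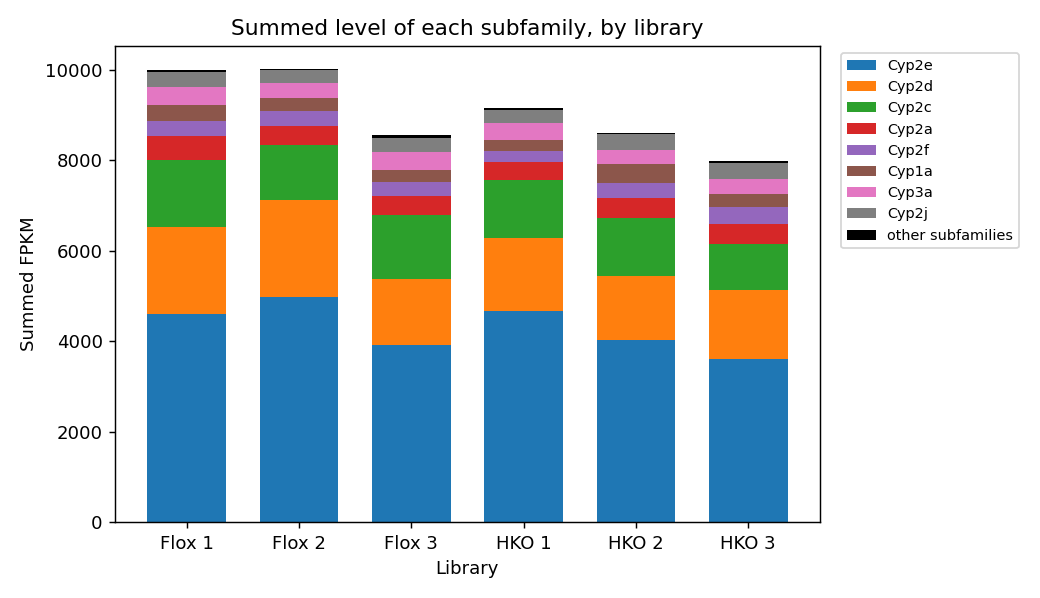
Summed FPKM of each subfamily, stacked per library (vertical axis from 0, in FPKM), for 3 Flox and 3 HKO libraries. Cyp2e, which is Cyp2e1 alone, fills close to the same share of every bar (45.1% to 50.8%), followed by Cyp2d (16.5% to 21.3%) and Cyp2c (12.3% to 16.5%).

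The make-up of the families was alike in all 6 libraries. Cyp2e1, Cyp2d and Cyp2c came first, next and after that in each library, and no other subfamily exceeded 5.45% of the sum. Cyp1a ranged from 2.47% (HKO 1) to 4.72% (HKO 2), both in HKO. The Cyp2b share ranged from 0.0143% in Flox 2 to 0.478% in Flox 3.

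By position in the liver lobule, the 7 members known to lie round the central vein had a median log2 fold change of -0.16, with 6 of 7 below 0 (3 under TPM, 5 under quantile normalization, 5 by assigned reads). Against the median of all genes, 6 of 7 lay below under TPM and by assigned reads and 5 under quantile normalization. Their median was -0.04 without Flox 1, -0.33 without Flox 2 and -0.05 without HKO 3. Other central vein genes had 8 of 10 below 0 with a median of -0.15 (4 under TPM, 6 under each of the other 2 scalings; against the median of all genes, 8 under TPM and by assigned reads and 7 under quantile normalization). Without Flox 2 that median was -0.07, and without Flox 3 it was -0.23. Rgn, a calcium-binding lactonase, was at 1053 ± 105 FPKM in Flox and 787 ± 66.4 FPKM in HKO without overlap (adjusted p = 0.648 in limma). Lhpp was at 34.6 ± 4.92 and 26.6 ± 1.8 FPKM and Oat, the ornithine aminotransferase, at 758 ± 206 and 509 ± 78.8 FPKM. Of 10 other portal vein genes, 5 were above and 5 below 0, with 4 below under each of the other 3 scalings. This split rested on single libraries, since 5 to 8 of the 10 were below 0 when 1 library was left out. Their median of -0.00 was -0.14 without Flox 2, with 8 of 10 below 0, and -0.17 without HKO 3, with 7 of 10 below 0. A difference between central and portal vein genes was not tested. Cdh1 (8.93 ± 0.356 and 12.2 ± 4.41 FPKM), Ass1 (1225 ± 183 and 869 ± 337 FPKM) and Hal (92.9 ± 10.4 and 81.6 ± 3.65 FPKM) had the smallest p of that list, and none of the 10 passed.

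The electron donors and haem supply of the enzymes held 7 tested genes, of which 4 had a fitted value below 0 (3 under TPM and quantile normalization; against the median of all genes, 4 and 3) and 0 passed. Por, the reductase that serves all microsomal members, was at 47.2 ± 13.1 FPKM in Flox and 37.6 ± 8.14 FPKM in HKO. Cyb5a, cytochrome b5, was at 501 ± 91.7 and 378 ± 30.8 FPKM, and its reductase Cyb5r3 at 120 ± 11.5 and 98.3 ± 22.4 FPKM. Both overlapped between the groups. Pgrmc1 was at 657 ± 89.5 and 589 ± 23.7 FPKM. Alas1, the first enzyme of haem synthesis, was at 23.5 ± 15 and 43.4 ± 35.4 FPKM, with a wide spread in both groups.

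Of 10 tested receptors and partners, 7 had a fitted value below 0 and 0 passed. Ahr was at 7.03 ± 3.17 FPKM in Flox and 9.53 ± 0.444 FPKM in HKO, Nr1i2 at 24.1 ± 2.76 and 20.7 ± 2.66 FPKM, and Nr1i3 at 3.79 ± 0.323 and 3.30 ± 1.16 FPKM. All 3 overlapped between the groups. Rxra, the partner of CAR and PXR, was at 82.0 ± 9.18 and 104 ± 11.4 FPKM without overlap (log2 fold change 0.34, adjusted p = 0.648 in limma). Its relative Rxrg was at 4.02 ± 0.502 and 2.68 ± 1.19 FPKM, and the chaperone Hsp90aa1, which holds Ahr in the cytosol, at 49.0 ± 7.41 and 36.5 ± 9.19 FPKM.

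Targets of these receptors outside the families also gave no call. Of 14 tested CAR and PXR targets, 10 had a fitted value below 0 with a median of -0.30 (10 under quantile normalization, 9 under TPM and by assigned reads), which was -0.17 without HKO 2. Gstm1, a glutathione transferase, was at 708 ± 96.1 FPKM in Flox and 525 ± 43.6 FPKM in HKO without overlap (log2 fold change -0.42, adjusted p = 0.648 in limma). Aldh1a7 was at 102 ± 9.59 and 82.8 ± 8.88 FPKM and Gsta2 at 8.12 ± 3.52 and 4.30 ± 1.25 FPKM, with overlap. Of 4 tested Ahr targets, Nqo1, a quinone reductase, was at 4.81 ± 0.665 and 2.96 ± 0.507 FPKM without overlap (log2 fold change -0.55, adjusted p = 0.58 in limma). Aldh3a1 had no read in any library, and Ugt1a6b and Ugt1a6a were at 16.0 ± 1.36 and 14.1 ± 1.6 FPKM and at 0.863 ± 0.293 and 1.08 ± 0.251 FPKM.

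Of 14 liver factors known to act on these families, 11 had a fitted value below 0, but 5 under TPM and 7 under each of the other 2 scalings. Against the median of all genes, 11 lay below under TPM and by assigned reads and 8 under quantile normalization. Cebpb, which takes part in the acute phase response, was at 126 ± 32.4 FPKM in Flox and 65.9 ± 22.1 FPKM in HKO without overlap (log2 fold change -0.95, adjusted p = 0.648 in limma). Hnf4a, the factor whose core was found in 9 member windows, was at 109 ± 5.16 and 124 ± 8.61 FPKM, also without overlap (adjusted p = 0.697 in limma). Dbp, a clock-driven factor, was at 26.4 ± 5.96 and 17.4 ± 8.25 FPKM with overlap.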

How the data were processed

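The authors deposited 1 table of FPKM values (reads per kilobase of gene, scaled by library size), with 1 value per gene and library and a gene length. The submitters' processing notes name the builds GRCm38 and mm10; the sources used here name no aligner, counter or annotation. Within a library, 100% of FPKM values times gene length were whole multiples of 1 step within 0.02 reads, which gave reads per gene. The scaling that the authors had applied followed median-ratio size factors, at 0.934 to 1.06 times the assigned reads.

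log2(FPKM + 1) was tested in limma 3.58.1 (R 4.3.3, trend, robust, statmod 1.5.0), two-sided, HKO minus Flox, on 11856 genes of at least 0.5 FPKM in 3 of 6 libraries, with Benjamini-Hochberg adjustment over all of them and a threshold of 0.05. The pseudocount of 1 understates the differences of low genes. The script was tested on simulated data. Copies were sought with blastn 2.17.0 in coding sequences of GENCODE release M21, and the windows upstream of genes came from RefSeq.

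The members and the gene lists were chosen with earlier results of these data known. Named members are the 3 with the highest mean of each subfamily (mean of at least 1 FPKM), the 15 with the smallest p, any with an adjusted p under 0.05 and, by highest value, those left out by the filter. Of each list, up to 3 genes with the smallest p are named, with Por, Ahr, Nr1i2 and Nr1i3 in any case. Cyp2b13, Cyp2c40, Cyp2c55, Cyp2c67, Cyp2c68, Cyp2d11 and Cyp2d40 fall outside this rule, as do Pgrmc1, Alas1 and Aldh3a1, and were added after their values were seen. The 1 Cyp2c gene left out by the rule, and 1 listed gene that the naming rule covers, are not reported here.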

Additional observations from a re-analysis of the deposited data

How the results depend on the processing

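Under all 16 alternatives, 0 members were called. Over all genes the count of calls was 1, with 0 without a filter, 2 with a filter on a mean of at least 5 FPKM, 3 in limma voom on recovered reads and 3 with array weights. Leaving out 1 library gave 0 to 13 calls, with 13 without HKO 1 and 0 without Flox 1, Flox 2, HKO 2 or HKO 3. With the replicate number as a block, 0 genes and 0 members were called and the members' median was -0.12. Same-numbered libraries deviated together by r = 0.0215, 0.015 and 0.0704, so the numbers were not taken as pairs. The members' median of -0.12 was -0.05 without a filter, 0.06 under TPM, 0.02 after quantile normalization and -0.04 by assigned reads, and -0.14 to -0.04 when 1 library was left out. The count of members at an unadjusted p under 0.05 was 0 under TPM and without Flox 1, 1 without Flox 2 (Cyp2c29), 5 in voom and 8 with array weights.

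Signs turned mostly among members close to 0. Under TPM, positive values were found for Cyp1a2 (0.13), Cyp2a12 (0.17), Cyp2a5 (0.02), Cyp2c67 (0.11), Cyp2d10 (0.04), Cyp2d26 (0.05), Cyp2d40 (0.08), Cyp2e1 (0.04), Cyp2f2 (0.16) and Cyp2j6 (0.06). After quantile normalization they were found for Cyp1a2 (0.09), Cyp2a12 (0.15), Cyp2c67 (0.05), Cyp2d10 (0.01), Cyp2d26 (0.05), Cyp2d40 (0.03) and Cyp2f2 (0.15), and by assigned reads for Cyp1a2 (0.03), Cyp2a12 (0.07), Cyp2c67 (0.01) and Cyp2f2 (0.06). Array weights turned Cyp2c67 (0.06), Cyp2f2 (0.02), Cyp2d11 (-0.07) and Cyp2u1 (-0.01), and voom turned Cyp2b13 (0.10). TPM and scaling by assigned reads differ from the deposited values only in the scale of each library. The cause of the other turns was not tested. Leaving out 1 library gave -0.27 to 0.15 for Cyp1a2, -0.14 to 0.09 for Cyp2a12, -0.54 to 0.02 for Cyp2b13, -0.34 to 1.69 for Cyp2b9, -0.07 to 0.28 for Cyp2c40 and -0.36 to 0.09 for Cyp2c55. It gave -0.17 to 0.04 for Cyp2c67, -0.31 to 0.09 for Cyp2d40, -0.13 to 0.16 for Cyp2f2, -0.20 to 0.06 for Cyp2j6, -0.07 to 0.11 for Cyp2r1, -0.11 to 0.24 for Cyp2u1 and -0.07 to 0.50 for Cyp3a11.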
